A study of Homo sapiens with 9 samples.

Results

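The respiratory chain was followed here through the genes of its subunits in HaCaT, an immortal cell line that arose from human epidermal keratinocytes. Members were all rows of the gene count table whose symbol has the form of a subunit of complex I (NDUFA, B, C, S or V with a number), complex II (SDHA to SDHD), complex III (UQCR), complex IV (COX4 to COX8), the ATP synthase, also called complex V (ATP5), or a protein-coding gene of mitochondrial DNA (MT-). The rule found 100 of 21170 rows, of which 87 lie in the nucleus and 13 in mitochondrial DNA. Poly(A) RNA of 9 libraries was sequenced: 3 of cells carrying an empty vector (Vector), 3 of cells overexpressing wild-type FTO (FTO) and 3 of cells overexpressing a mutant that disrupts the demethylase activity (mut-FTO). FTO is a demethylase that acts on methylated adenosine in RNA. All groups share the HaCaT background, and no dose, time or clone is named for any of them. The labels do not say whether the replicates were grown as separate cultures, and the p-values then reflect only how far these libraries differ, which may be technical.

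The respiratory chain passes electrons from NADH (complex I) and succinate (complex II) through ubiquinone, complex III and cytochrome c to oxygen at complex IV, and complexes I, III and IV pump protons across the inner mitochondrial membrane. The ATP synthase uses the returning protons to make ATP. Subunits come from both genomes except in complex II, which is nuclear throughout. The mitochondrial genes are read as long transcripts from both strands that are then cut into shorter RNAs, most with short poly(A) tails. Basal keratinocytes respire, and mitochondria are removed as the cells cornify.

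By name the nuclear members fell into 37 of complex I, 4 of complex II, 9 of complex III, 17 of complex IV and 20 of complex V. The mitochondrial members were 7 of complex I, 1 of complex III, 3 of complex IV and 2 of complex V. Some names differ from current usage. NDUFA4 is a subunit of complex IV by current knowledge, ATP5S and ATP5SL are now called DMAC2L and DMAC2 and are not counted as subunits of the ATP synthase, UQCRHL is a near copy of UQCRH whose reads may be split with it, ATP5EP2 is a pseudogene and ATP5J2-PTCD1 a read-through gene. ATP5O is now called ATP5PO.

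Reads could be shared between neighbouring mitochondrial genes in places. In the GRCh38 mitochondrial sequence (GENCODE 29), MT-ATP8 and MT-ATP6 overlap by 46 bases at chrM:8527-8572, and MT-ND4L and MT-ND4 by 7 bases at chrM:10760-10766. The capitals below are the bases that belong to both genes, and a read that covers any of them overlaps both genes.
MT-ATP8 and MT-ATP6: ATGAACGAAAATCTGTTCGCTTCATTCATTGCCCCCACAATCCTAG
MT-ND4L and MT-ND4: ATGCTAA
MT-ND6 is the one member on the opposite strand of this genome, and the strand setting of the counting is not given in the sources used here, so its reads and those of the complementary transcript cannot be told apart.

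Promoters of nuclear members were searched for motifs of factors known to regulate respiratory genes. Of the 87 nuclear members, 67 matched a RefSeq promoter (GRCh38.p14, 250 bases before to 50 after the start). The NRF1 motif CGCATGCG was in 10 of the 67 (14.9%, against 2.19% of all 27305 promoters), the ETS motif CCGGAAG bound by GABP in 19 (28.4%, against 10.7%), and the YY1 motif AANATGGCG in 16 (23.9%, against 3.37%), counting both strands; the 3 motifs were searched separately and a match is a description of letters only. The 150 bases before the start are printed for the 3 nuclear genes with the lowest adjusted p in mut-FTO against Vector and for SDHD, the complex II anchor with the largest fold change of that complex against Vector, with motif matches in capitals.
ATP5O: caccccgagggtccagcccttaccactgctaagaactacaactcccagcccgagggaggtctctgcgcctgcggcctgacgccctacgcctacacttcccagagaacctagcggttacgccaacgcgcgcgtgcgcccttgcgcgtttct
COX7B: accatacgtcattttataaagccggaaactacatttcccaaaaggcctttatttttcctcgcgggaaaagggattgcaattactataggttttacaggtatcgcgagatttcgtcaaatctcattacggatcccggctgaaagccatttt
NDUFA1: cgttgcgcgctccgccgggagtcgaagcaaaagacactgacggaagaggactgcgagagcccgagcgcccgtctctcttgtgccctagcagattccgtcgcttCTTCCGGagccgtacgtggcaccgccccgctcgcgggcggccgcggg
SDHD: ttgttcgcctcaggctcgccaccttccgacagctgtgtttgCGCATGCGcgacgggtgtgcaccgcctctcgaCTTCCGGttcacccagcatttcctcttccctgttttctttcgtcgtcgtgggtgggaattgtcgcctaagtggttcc
They lie at chr21:33915805-33915954 on the minus strand (ATP5O), chrX:77899318-77899467 (COX7B), chrX:119871682-119871831 (NDUFA1) and chr11:112086723-112086872 (SDHD), the last 3 on the plus strand. NDUFA1 held the ETS motif, SDHD held NRF1 and ETS, and ATP5O and COX7B held none of the 3 motifs in their windows.

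Depth ranged from 32222203 to 37846027 counts per library, and 13713 genes had enough counts to be tested. The FTO gene checked the labels: 18.4, 16.97 and 25.8 CPM (counts per 1e+06 of the TMM-scaled library size) in Vector, 69.6, 77.1 and 62.6 in FTO, against 49.7, 82.7 and 64.3 in mut-FTO, so both overexpressing groups were above Vector but the gene's level does not tell FTO from mut-FTO. Keratinocyte markers (12 of 12 at 1 CPM or more in each group) summed to 20690 to 27360 CPM in Vector, 25130 to 26150 in FTO and 28320 to 36080 in mut-FTO. Fibroblast markers summed to at most 10.8 CPM in any library, melanocyte markers to 2.54 and endothelial markers to 1.73, with THY1, TYR, DCT, PECAM1 and CLDN5 at 0 in every group. Leukocyte markers summed to 122 to 152.1 CPM in Vector, 82.9 to 87.6 in FTO and 79.2 to 132.5 in mut-FTO, with PTPRC at 0 in Vector and FTO. Vector replicate 3 and mut-FTO replicate 2 stood apart from their groups: loci assembled without a gene name took 2.50% and 3.17% of their counts, against 0.689 to 0.875% in the other libraries. Comparisons below are given with and without Vector replicate 3.

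Of the 100 members, 92 passed the filter on low counts: 79 nuclear and all 13 mitochondrial. COX4I2, COX6A2, COX7B2, COX8C and ATP5L2 had 0 counts in every library, COX7A1 had 1 count in all, ATP5J2-PTCD1 had 1, 2 and 2 counts in Vector, FTO and mut-FTO, and ATP5EP2 had 10, 4 and 5. COX6A2 and COX7A1 are the heart and skeletal muscle isoforms of complex IV subunits, COX4I2 is known from lung, and COX7B2 and COX8C from testis. Their widely expressed partners were abundant: COX4I1 at 628.9, 514.1 and 278.9 CPM in Vector, 619.6, 555.7 and 663.6 in FTO, against 633.9, 734.1 and 582 in mut-FTO. COX6B2, the testis partner of COX6B1, was tested but stayed at 0.324 to 2.002 CPM, while COX6B1 ranged from 31.1 to 97.6.

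Mitochondrially encoded members took most of the respiratory chain counts. Their share of all counts was 4.16%, 4.20% and 14.97% in Vector, 3.98%, 4.32% and 3.81% in FTO, against 5.52%, 7.45% and 5.77% in mut-FTO. The 87 nuclear members together took 0.978%, 0.842% and 0.552% in Vector, 0.995%, 0.937% and 1.089% in FTO, against 1.156%, 0.994% and 1.035% in mut-FTO. Vector replicate 3 was the highest library for the mitochondrial share and the lowest for the nuclear share, and the ratio of mitochondrial to nuclear counts was 27.1 there and 3.50 to 7.49 in the other 8 libraries. Wilson 95% intervals, which cover counting error only, reached no more than 0.0115 percentage points to either side of a mitochondrial share and 0.00345 of a nuclear share. Every mut-FTO library had a higher mitochondrial share than every FTO library, 6.25% ± 1.05 (SD, n = 3) against 4.04% ± 0.264 (SD, n = 3). An exact permutation test, two-sided, gave p = 0.1 for that difference, the smallest that 3 against 3 allows (0.3 after Benjamini-Hochberg adjustment over 9 such comparisons of shares). In bulk RNA, fewer mitochondria-rich cells and less mitochondrial RNA per cell cannot be told apart.

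**Figure D1:**
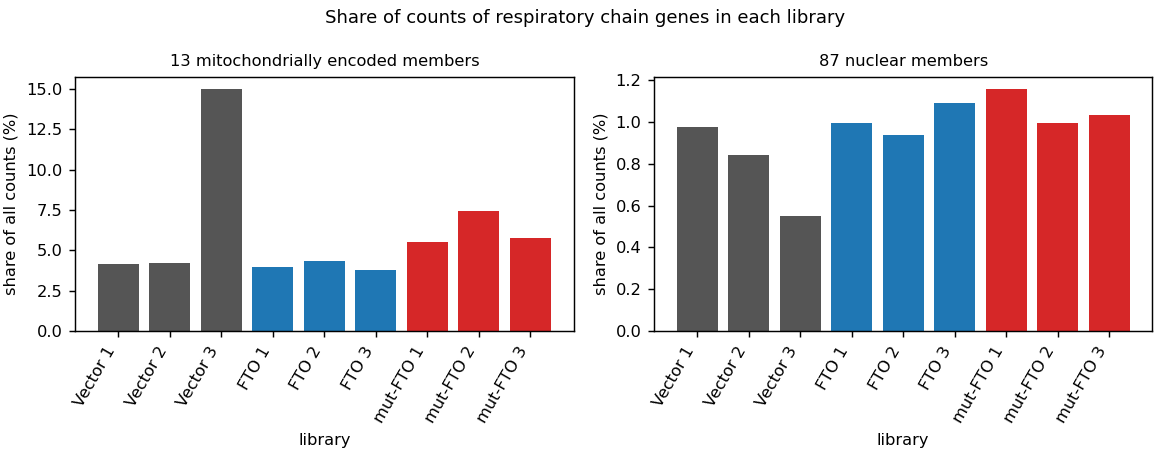
Share of all counts (vertical axis, percent) of the 13 mitochondrially encoded (left) and 87 nuclear members (right) in each of the 9 libraries; bars are single libraries, grey Vector, blue FTO, red mut-FTO. Vector replicate 3 reaches 14.97% on the left and is the lowest on the right at 0.552%.

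Vector replicate 3 differed from the other Vector libraries in opposite directions for mitochondrial and nuclear genes. All 13 mitochondrial members were above both other Vector libraries, with a median log2 ratio of CPM of 1.98 (1.58 to 2.93) to their mean. Of the 79 nuclear members tested, 58 were below both and 12 above both, with a median of -0.61 (-1.81 to 1.32). Of all 13713 genes tested, 5990 were below both and 5981 above both, with a median of -0.01. Most genes thus lay outside the other 2 Vector libraries in this one, and the nuclear members leaned to the lower side. The nuclear median was lowest in complex III, at -0.95, although UQCRB of that complex was 43.1, 38.3 and 101.7 CPM in Vector, the largest excess of a nuclear member in that library. In mut-FTO replicate 2 all 13 mitochondrial members were above both other mut-FTO libraries as well, with a median of 0.59. Of the 79 nuclear members 30 were below both and 30 above both, with a median of -0.03. All genes tested were split in much the same way there, 4976 of 13713 below both and 4843 above both, with a median of -0.01.

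**Figure D2:**
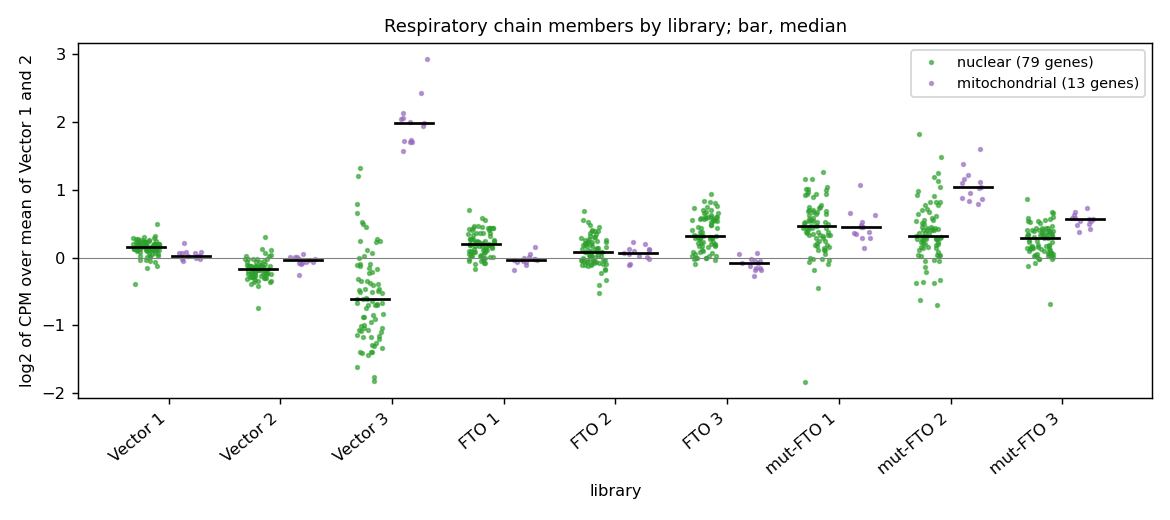
Log2 ratio of each tested member's CPM to the mean of Vector replicates 1 and 2 (vertical axis) in each library (horizontal axis); points are genes, green nuclear and purple mitochondrial, bars are medians. Vector replicate 3 has its mitochondrial members near 2 and its nuclear members mostly below 0, and the 3 mut-FTO libraries have both kinds mostly above 0.

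The largest part of the mitochondrial RNA was alike across libraries, and some smaller parts were not. MT-CO1, the catalytic subunit of complex IV, made up 25.5 to 28.8% of the counts of the 13 genes in every library. MT-ND4L was 2.995% in Vector replicate 3 against 1.27 to 1.85% in the other 8 libraries, MT-ND4 was 12.27% there against 9.59 to 10.88%, and MT-ND5 4.32% against 2.82 to 3.25%. MT-CYB, which encodes cytochrome b, was 4.90% there against 5.40 to 6.38%. Also below the other 8 libraries there were MT-CO2 (16.79% against 17.52 to 19.22%) and MT-ATP8 (2.73% against 2.92 to 3.44%). MT-ND1 (2.11% against 1.54 to 1.94%) and MT-ND6 (1.59% against 1.25 to 1.58%) were above them. MT-ND3 ranged from 0.30 to 0.56% in the other 8 libraries. Per kilobase of transcript (GENCODE 29), MT-CO2 had the highest level of all members, at a mean of 10930 CPM per kb in FTO, and the nuclear members with the highest levels in FTO were COX4I1 at 702.1 and ATP5B, the catalytic beta subunit of the ATP synthase, at 684.2 CPM per kb.

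FTO against Vector asks what wild-type FTO did to these transcripts. With all 9 libraries no member passed the threshold, an adjusted p below 0.05 in edgeR's quasi-likelihood test, where 0.744% of all genes tested did in either direction; 28 of the 92 members had an unadjusted p below 0.05 (11.9% of all genes tested did), DESeq2 called 1 (ATP5O) and limma-voom 0. The median log2 fold change was 0.39 over nuclear members, 73 of 79 being above 0, and -0.95 over mitochondrial members, all 13 being below 0, against -0.002 over all genes tested. Of the 92 members, 21 had every FTO library above every Vector library, all of them nuclear, where 10.1% of all genes did. By complex the nuclear medians were 0.37 (I), 0.19 (II), 0.43 (III), 0.41 (IV) and 0.36 (V). Without Vector replicate 3 the nuclear median was 0.18 and the mitochondrial median -0.05, and 2 members rose, UQCRB and ATP5O, where 1.15% of all genes tested rose.

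ATP5O encodes OSCP, the subunit that joins the peripheral stalk of the ATP synthase to its catalytic head. It stood at 88.5, 73.4 and 69.5 CPM in Vector, 121.3, 110.5 and 137.9 in FTO, against 134.3, 133.1 and 122.1 in mut-FTO. Every FTO and mut-FTO library was above every Vector library. Its log2 fold change in FTO against Vector was 0.68 (SE 0.16, edgeR adjusted p = 0.0762) with all libraries and 0.58 (adjusted p = 0.0235) without Vector replicate 3. UQCRB, a small subunit of complex III near the ubiquinone site, stood at 66.1, 65.4 and 78.3 CPM in FTO, against 91.2, 83.8 and 60.4 in mut-FTO. Its log2 fold change in FTO against Vector was 0.20 (edgeR adjusted p = 0.841) with all libraries and 0.76 (adjusted p = 0.0178) without Vector replicate 3, the library in which it was highest.

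MT-CO1 gives an example of the mitochondrial values with and without that library. It stood at 11280, 11530 and 38000 CPM in Vector, 11300, 12250 and 10460 in FTO, against 13940, 20750 and 15970 in mut-FTO. FTO libraries overlapped Vector replicates 1 and 2, and every mut-FTO library was above these 5. In FTO against Vector its log2 fold change was -0.84 (edgeR adjusted p = 0.426) with all libraries and -0.03 (adjusted p = 0.936) without Vector replicate 3.

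In mut-FTO against Vector 7 members rose and none fell, all 7 nuclear, against 3.27% of all genes tested that rose. They were ATP5O of the ATP synthase, COX7B and COX6C of complex IV, and NDUFA1, NDUFB1, NDUFA3 and NDUFA6, accessory subunits of complex I; 44 of the 92 members had an unadjusted p below 0.05, where 21.1% of all genes tested did. The median log2 fold change was 0.56 over nuclear members, 75 of 79 being above 0, and -0.22 over mitochondrial members, 11 of 13 being below 0, against -0.001 over all genes tested. The nuclear medians were 0.51 (I), 0.35 (II), 0.56 (III), 0.60 (IV) and 0.64 (V). In 36 members, all nuclear, every mut-FTO library was above every Vector library, where 12.2% of all genes were.

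ATP5O had a log2 fold change of 0.75 (SE 0.16, edgeR adjusted p = 0.00988) in mut-FTO against Vector. COX7B stood at 61.8, 47.1 and 57.3 CPM in Vector, 74.0, 67.7 and 96.7 in FTO, against 112.2, 124.5 and 79.7 in mut-FTO. Its log2 fold change was 0.93 (SE 0.20, edgeR adjusted p = 0.0142). The FTO libraries of COX7B were all above Vector and overlapped mut-FTO. NDUFA1, an accessory subunit that complex I needs for its assembly, stood at 27.4, 19.5 and 14.8 CPM in Vector, 31.6, 27.0 and 35.7 in FTO, against 47.1, 41.5 and 34.2 in mut-FTO. Its log2 fold change was 0.99 (SE 0.23, edgeR adjusted p = 0.0194). NDUFA3 was lower in level, at 7.83, 6.07 and 4.96 CPM in Vector, 8.26, 6.71 and 9.41 in FTO, against 13.6, 19.4 and 8.73 in mut-FTO. Its log2 fold change was 1.14 (SE 0.29, edgeR adjusted p = 0.0303). Its mut-FTO libraries were spread widely, and the lowest was below the highest FTO library.

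NDUFB1 stood at 6.96, 4.45 and 5.10 CPM in Vector, 6.19, 5.58 and 8.44 in FTO, against 10.97, 13.5 and 9.04 in mut-FTO. COX6C stood at 56.6, 46.5 and 51.6 CPM in Vector, 69.9, 74.0 and 89.7 in FTO, against 88.1, 90.9 and 66.97 in mut-FTO. NDUFA6 stood at 48.3, 40.1 and 53.6 CPM in Vector, 56.6, 53.1 and 61.8 in FTO, against 83.8, 87.5 and 59.6 in mut-FTO. In each of the 3 genes mut-FTO was above Vector in every library, and in COX6C FTO was as well. NDUFB1, COX6C and NDUFA6 rose by log2 fold changes of 1.02 (SE 0.25), 0.67 (SE 0.17) and 0.70 (SE 0.18), with edgeR adjusted p values of 0.0271, 0.0332 and 0.0348. These 7 calls were not equally steady when each library was left out. ATP5O passed the threshold in 8 of the 9 such fits and missed it without Vector replicate 2, at an adjusted p of 0.0508 in edgeR. COX7B, NDUFA1 and NDUFB1 passed in 6 of 9, NDUFA3 in 4, COX6C in 3 and NDUFA6 in 2.

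**Figure D3:**
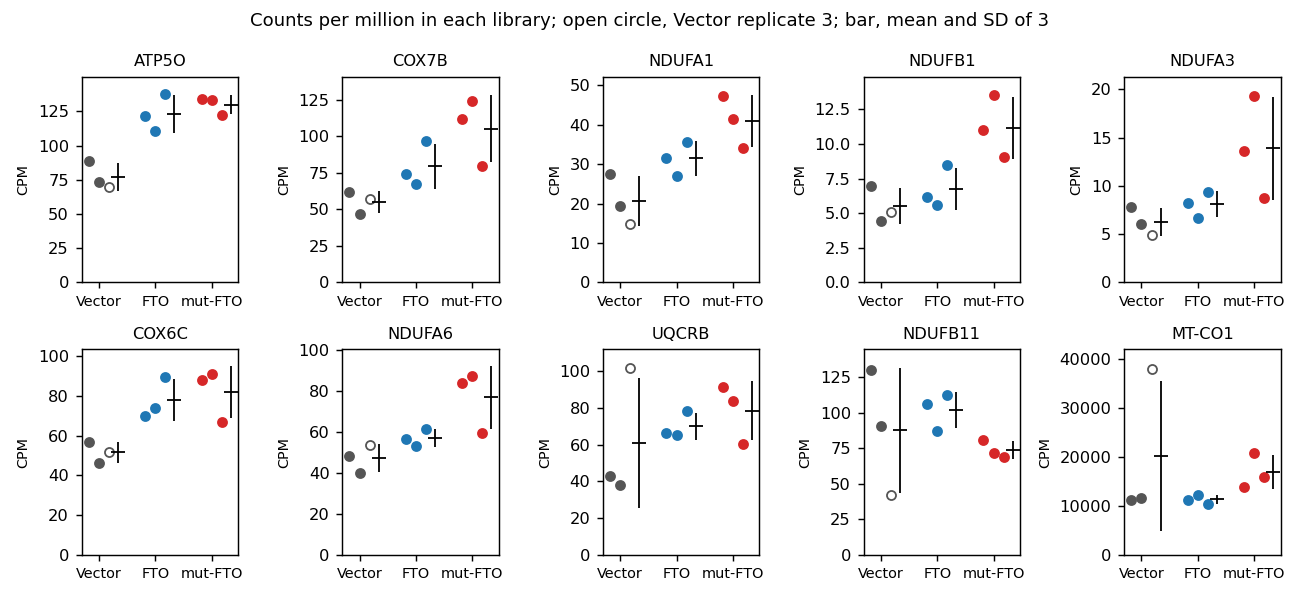
CPM (vertical axes, from 0) in the 3 Vector (grey), 3 FTO (blue) and 3 mut-FTO (red) libraries for 10 members; open circle, Vector replicate 3, with the mean and SD of each group beside the points. In the first 7 panels every mut-FTO library is above every Vector library, in UQCRB and MT-CO1 Vector replicate 3 is the highest point, and in NDUFB11 it is the lowest.

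The count of members called in mut-FTO against Vector depended on single libraries. Without Vector replicate 1, 31 members rose, all nuclear, against 4.23% of all genes tested. Without Vector replicate 2 no member passed, where 5.22% of all genes tested did in either direction. Without FTO replicate 1 or 3, 4 members rose, against 2.25% and 2.20% of all genes tested. Without mut-FTO replicate 1, 1 member rose (1.09%, against 2.17% of all genes tested), and without mut-FTO replicate 2, 3 rose (3.26%, against 1.76%). Without mut-FTO replicate 3, 7 rose (7.61%, against 1.77%), and without FTO replicate 2, 5 rose (5.43%, against 2.27%). Without Vector replicate 3, 32 rose, against 6.56% of all genes tested, and 1 fell, NDUFB11, against 8.41% of all genes tested. Of the 13 mitochondrial members 11 rose, all except MT-ND1 (log2 fold change 0.53, edgeR adjusted p = 0.0638) and MT-ND4L (0.82, adjusted p = 0.0669), and their median was 0.72, where all genes tested had 0.02. Of the 79 nuclear members tested 21 rose: 8 of complex I, 0 of complex II, 3 of complex III, 3 of complex IV and 7 of complex V by name. The 7 include ATP5S, which is not counted as a subunit of the ATP synthase. It stood at 6.55, 7.69 and 8.40 CPM in Vector, 8.32, 8.80 and 11.19 in FTO, against 13.65, 10.49 and 12.97 in mut-FTO. Its edgeR adjusted p was 0.0544 with all 9 libraries and 0.0132 without Vector replicate 3. The largest rises among mitochondrial members were MT-ND3 at 1.12 (SE 0.28, edgeR adjusted p = 0.0259), MT-CYB at 0.86 (SE 0.15, adjusted p = 0.000649) and MT-CO3 at 0.83 (adjusted p = 0.00249). With all 9 libraries the fold changes of 11 mitochondrial genes were below 0, for MT-CO1 -0.26 (edgeR adjusted p = 0.755), and none passed.

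Among nuclear members, UQCRB rose by a log2 fold change of 0.94 without Vector replicate 3 (edgeR adjusted p = 0.000944). NDUFA13, NDUFA5, UQCR10, COX7C and ATP5H also rose without that library, and so did ATP5G1 and ATP5G2, 2 of the 3 genes for subunit c of the ATP synthase, which differ in their import sequences and give the same mature protein. ATP5G3, the third, had a log2 fold change of 0.35 (edgeR adjusted p = 0.101). NDUFB11, an accessory subunit of complex I encoded on the X chromosome, fell by 0.59 (SE 0.16, edgeR adjusted p = 0.0168) without Vector replicate 3. It stood at 130.2, 90.9 and 41.8 CPM in Vector, 106.4, 87.5 and 112.2 in FTO, against 81.1, 71.5 and 69.0 in mut-FTO, so the Vector library left out was its lowest.

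**Figure D4:**
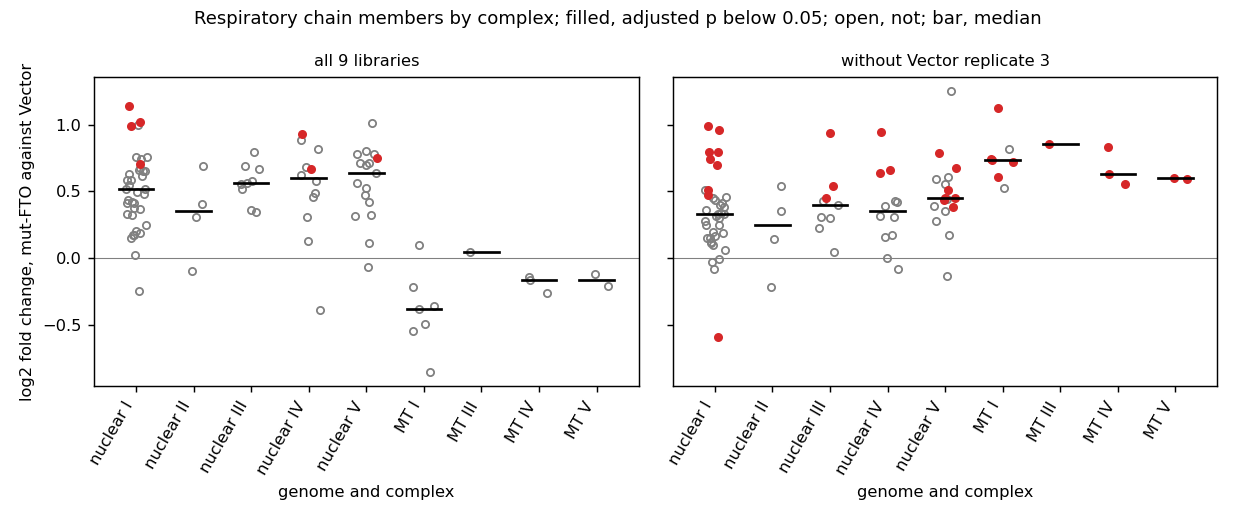
Log2 fold change in mut-FTO against Vector (vertical axis) of each tested member by genome and complex (horizontal axis), with all 9 libraries (left) and without Vector replicate 3 (right); filled red points have an edgeR adjusted p below 0.05, bars are medians. On the left the 7 filled points are nuclear, and on the right 11 of 13 mitochondrial members are filled and above 0.

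The most abundant nuclear member of each complex by mean CPM did not pass in any of the 3 comparisons with all 9 libraries or without Vector replicate 3. NDUFV1, the flavoprotein of complex I where NADH is oxidized, stood at 179.1, 163.7 and 69.7 CPM in Vector, 201, 181.8 and 178.9 in FTO, against 213.3, 211.6 and 225.3 in mut-FTO. UQCRC1, a core subunit of complex III, stood at 320.7, 291.9 and 138.9 CPM in Vector, 323.8, 292.6 and 301 in FTO, against 301.5, 337.4 and 315.4 in mut-FTO. ATP5B stood at 1160, 1074 and 531.9 CPM in Vector, 1274, 1194 and 1307 in FTO, against 1330, 1290 and 1471 in mut-FTO. In all 3 genes Vector replicate 3 was the lowest of the 9 libraries by far. In mut-FTO against Vector the log2 fold changes with all libraries and without Vector replicate 3 were 0.66 and 0.33 for NDUFV1, 0.34 and 0.04 for UQCRC1, and 0.56 and 0.28 for ATP5B.

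The other core subunit of complex III, UQCRC2, stood at 129.8, 135 and 104.4 CPM in Vector, 175.3, 162 and 197.2 in FTO, against 204.2, 161 and 179.6 in mut-FTO. Its FTO and mut-FTO libraries were all above Vector and overlapped each other. The log2 fold change was 0.53 (edgeR adjusted p = 0.218) in FTO against Vector and 0.56 (adjusted p = 0.0551) in mut-FTO against Vector. In the latter it passed without Vector replicate 3, at 0.45 (edgeR adjusted p = 0.0294). ATP5I, a small membrane subunit of the ATP synthase, had the largest nuclear log2 fold change of FTO against mut-FTO, -1.15 (edgeR adjusted p = 0.172), but stood at 12.5, 18.4 and 6.53 CPM in mut-FTO against 5.71, 5.18 and 6.01 in FTO.

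Complex II had no called member with all 9 libraries or without Vector replicate 3. SDHA, the flavoprotein that oxidizes succinate, stood at 136.3, 133.4 and 93.7 CPM in Vector, 119.5, 125.7 and 126.6 in FTO, against 134.9, 164.6 and 149.4 in mut-FTO. SDHB, the iron-sulfur subunit, had an edgeR adjusted p of 0.117 in mut-FTO against Vector (log2 fold change 0.40), and SDHC, the other anchor, one of 0.794 (-0.09). SDHD, which anchors complex II in the membrane, stood at 80.0, 85.3 and 58.3 CPM in Vector, 121.6, 115.1 and 134 in FTO, against 157.7, 71.7 and 131.9 in mut-FTO. Every FTO library was above every Vector library, and mut-FTO replicate 2 was the one library of the overexpressing groups within the range of Vector. SDHD passed in mut-FTO against Vector when mut-FTO replicate 2 alone was left out. With all 9 libraries its edgeR adjusted p was 0.281 in FTO against Vector and 0.124 in mut-FTO against Vector. After the data were seen, Vector replicate 3 and mut-FTO replicate 2 were left out together: SDHD then passed in both, at log2 fold changes of 0.57 (edgeR adjusted p = 0.00545) and 0.78 (adjusted p = 0.000169). In that fit 8 members rose in FTO against Vector (3.36% of all genes tested) and 35 in mut-FTO against Vector (7.65%), 12 of them mitochondrial.

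FTO against mut-FTO compares the enzyme with its mutant, and no Vector library is in either group. Vector libraries enter the filter on low counts, the TMM scaling and the shared estimate of the spread. With all 9 libraries no member passed, where 2.33% of all genes tested did in either direction; 5 of the 92 members had an unadjusted p below 0.05 (14.0% of all genes tested did), and DESeq2 and limma-voom called 0. Yet all 13 mitochondrial members had every FTO library below every mut-FTO library, among 23 of the 92 members that did, where 14.2% of all genes tested did. The median log2 fold change was -0.71 over mitochondrial members and -0.12 over nuclear members, against 0.005 over all genes tested. The 13 mitochondrial genes are read from shared transcripts and are not independent of each other.

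MT-ND3, a core membrane subunit of complex I, differed most. It stood at 145.5, 136.5 and 140.5 CPM in FTO, against 304.7, 440.8 and 210.5 in mut-FTO, with 169.1, 121.3 and 603.3 in Vector. Its log2 fold change was -1.18 (edgeR adjusted p = 0.32) with all 9 libraries and -1.19 (adjusted p = 0.0153) without Vector replicate 3. MT-ND2 stood at 1505, 1562 and 1372 CPM in FTO, against 2236, 3175 and 2416 in mut-FTO, with log2 fold changes of -0.82 (edgeR adjusted p = 0.422) and -0.83 (adjusted p = 0.000534). For MT-CO1 they were -0.57 (SE 0.39, edgeR adjusted p = 0.57) and -0.59 (SE 0.13, adjusted p = 0.00961). The size of each difference hardly moved, and its standard error became smaller when the one Vector library left the estimate of the spread.

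MT-CYB stood at 2456, 2574 and 2306 CPM in FTO, against 3466, 4892 and 3638 in mut-FTO, with 2233, 2156 and 7240 in Vector. MT-CO3 of complex IV stood at 4799, 5042 and 4795 CPM in FTO, against 7200, 10820 and 6936 in mut-FTO, with 4906, 4367 and 18300 in Vector. MT-ATP6, the proton channel subunit of the ATP synthase, stood at 4183, 4609 and 3925 CPM in FTO, against 5987, 7827 and 6196 in mut-FTO, with 4371, 4398 and 14360 in Vector. In these 3 genes Vector replicates 1 and 2 lay close to the FTO libraries and below every mut-FTO library. MT-ND6, from the opposite strand, followed the same order, at 574.8, 677 and 581.7 CPM in FTO, against 825.7, 1018 and 872.6 in mut-FTO, with 621.8, 559.2 and 2352 in Vector. MT-ND4L was the most uneven of the 13 across libraries, at 512.6, 569.6 and 481.8 CPM in FTO, against 711.6, 1507 and 867.6 in mut-FTO, with 557.5, 602 and 4425 in Vector.

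Without Vector replicate 3, 16 members were lower in FTO than in mut-FTO, against 5.63% of all genes tested: the 13 mitochondrial members and ATP5G1, NDUFB1 and NDUFA3. In a fit of the 6 FTO and mut-FTO libraries alone, 15 were lower, against 4.86% of all genes tested, 12 of them mitochondrial. In that fit 1 of the 92 members, nuclear and of complex I, was higher, where 568 of all 13381 genes tested were. Without Vector replicate 3 and mut-FTO replicate 2, 13 were lower, against 3.97%, again 12 of them mitochondrial, with a mitochondrial median of -0.52. ATP5G1 stood at 46.4, 42.3 and 49.0 CPM in FTO, against 61.1, 61.4 and 64.6 in mut-FTO, and its groups did not overlap. The summed level of keratinocyte markers was also higher in every mut-FTO library than in every FTO library, and its part in these results was not tested.

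**Figure D5:**
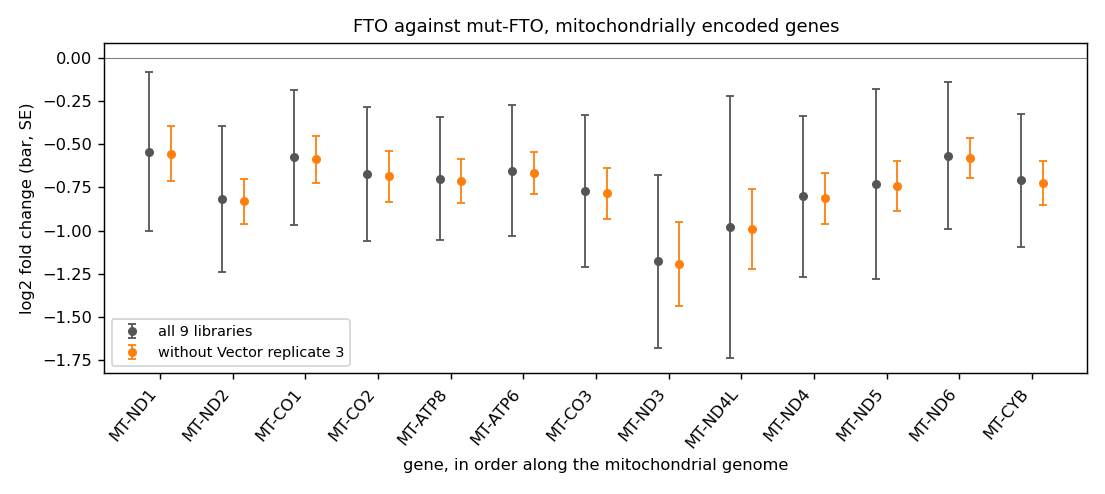
Log2 fold change of FTO against mut-FTO (vertical axis, bars are SE) for the 13 mitochondrially encoded genes in their order along the mitochondrial genome, with all 9 libraries (grey) and without Vector replicate 3 (orange). All points are below 0, from -0.54 at MT-ND1 to -1.19 at MT-ND3, and the SE is smaller in the second fit for every gene.

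Further gene lists of the pathway were counted in the same way. ATP5SL stands in these lists and is also a member by name. CYC1 is counted in these lists alone, since its symbol does not match the rule for members. Of 168 tested genes for electron carriers, assembly factors, mitochondrial DNA and RNA upkeep, nuclear regulators, the tricarboxylic acid cycle and mitochondrial import, 0 passed in FTO against Vector, with or without Vector replicate 3. Of all genes tested, 0.744% passed with all libraries, so few of the 168 could be looked for. Without Vector replicate 3, 1.15% of all genes tested rose and 2.26% fell. In mut-FTO against Vector 2 rose (1.19%, against 3.27% of all genes tested) and 1 fell (0.595%, against 4.51%). DLST, a subunit of the oxoglutarate dehydrogenase complex, rose by 0.57 (edgeR adjusted p = 0.0481), and PDHA1, the E1 alpha subunit of pyruvate dehydrogenase, fell by 0.62 (edgeR adjusted p = 0.0459). Both genes also passed without Vector replicate 3, when 9 of the 168 rose (5.36%, against 6.56% of all genes tested) and 4 fell (2.38%, against 8.41%).

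In FTO against mut-FTO 2 of these genes were lower (1.19%, against 1.13% of all genes tested). OXA1L, which inserts mitochondrially made subunits into the inner membrane, stood at 92.4, 97.5 and 100.4 CPM in FTO, 137, 180.6 and 149.2 in mut-FTO and 100.7, 94.8 and 121.4 in Vector, a log2 fold change of -0.68 (edgeR adjusted p = 0.0461). OGDH, the first enzyme of the oxoglutarate dehydrogenase complex, had a log2 fold change of -0.70 (edgeR adjusted p = 0.0445). Of the 18 genes of mitochondrial DNA maintenance and transcription none passed with all 9 libraries, with a median of 0.16. TFB1M, a methyltransferase of mitochondrial ribosomal RNA, stood at 13.2, 10.96 and 9.64 CPM in Vector, 12.5, 10.7 and 12.8 in FTO, against 6.68, 7.30 and 7.40 in mut-FTO, with an edgeR adjusted p of 0.0666 in FTO against mut-FTO and 0.00707 without Vector replicate 3. TFAM, the main packaging and transcription factor of mitochondrial DNA, did not pass in either case (edgeR adjusted p = 0.465 and 0.196).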

How the data were processed

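Poly(A) RNA of 9 HaCaT libraries was counted per gene by the authors, and the deposited table holds whole-number counts, not normalized. HISAT2 and StringTie are named per the submitters' processing notes, as is mm10, a mouse build, although the symbols are human; no version, annotation or strand setting is given in the sources used here. Columns were matched to groups by their letters, and FTO and mut-FTO columns are told apart by letters alone. The table has 1441 assembled loci without a gene name.

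Tests used edgeR 4.0.16 (R 4.3.3): filterByExpr by group (minimum count 10, minimum total 15), TMM factors, one robust quasi-likelihood model of all 9 libraries with a term per group, and Benjamini-Hochberg adjustment over the 13713 genes tested. SE is the fold change divided by the square root of F. Log ratios between libraries used a pseudocount of 0.1 CPM. Lengths are of the longest GENCODE 29 principal transcript. The procedure was tested on simulated data. Any 2 libraries of a group differed by more than sampling noise. The members and the lists were chosen with earlier results of these data known. Named genes are the 13 mitochondrial members, nuclear members past the threshold with or without Vector replicate 3 (up to 10 of lowest p per comparison), the highest and lowest-p member per complex, isoform partners, and up to 4 called genes per pathway list. Alternatives were RLE factors, library size alone, DESeq2 1.42.0, limma-voom 3.58.1, no filter, a replicate block, only the 6 samples compared, mitochondrial genes left out, and each library left out. Some listed genes are counted but not reported here by name.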

Additional observations from a re-analysis of the deposited data

How the results depend on the processing

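Kept were the signs of the nuclear medians: over the fits that left out 1 library each they ranged from 0.183 to 0.612 in FTO against Vector, from 0.383 to 0.715 in mut-FTO against Vector and from -0.204 to -0.0696 in FTO against mut-FTO, where the mitochondrial median ranged from -0.812 to -0.541. The counts of members called and the mitochondrial fold changes against Vector moved. Members called in FTO against Vector, 0 with all libraries, were 1 with DESeq2 and 0 to 2 with 1 library left out; in mut-FTO against Vector, 7 with all libraries, they were 18 with DESeq2, 1 in a fit of only the 6 samples compared and 0 to 33 with 1 library left out; in FTO against mut-FTO, 0 with all libraries, they were 16 in a fit of only the 6 samples compared and 0 to 16 with 1 library left out. Chosen after seeing the data were 2 further settings: without Vector replicate 3 and mut-FTO replicate 2 these 3 counts were 8, 36 and 13, and without Vector replicate 3 and the mitochondrially encoded genes they were 3, 22 and 4, with fewer members tested. With only the 6 samples compared, 245 of all 13425 genes rose and 376 fell in mut-FTO against Vector. In FTO against mut-FTO 568 of 13381 were higher and 650 lower. Shares of all genes are not given here for DESeq2, the replicate block or the fit without mitochondrial genes. Those counts show only how the calls of members moved.

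With 1 library left out, the mitochondrial median ranged from -1.28 to -0.0544 in FTO against Vector and from -0.548 to 0.719 in mut-FTO against Vector; without Vector replicate 3 and mut-FTO replicate 2 the medians were -0.0451 and 0.472. In mut-FTO against Vector, 11 of the 13 mitochondrial genes changed sign when Vector replicate 3 was left out. Over the fits with 1 library left out, log2 fold changes ranged from -0.493 to 0.596 for MT-ATP6, -0.401 to 0.604 for MT-ATP8, -0.554 to 0.556 for MT-CO1, -0.456 to 0.631 for MT-CO2, -0.484 to 0.833 for MT-CO3, -0.843 to 0.527 for MT-ND1, -0.55 to 0.734 for MT-ND2, -0.708 to 0.719 for MT-ND4, -1.29 to 0.816 for MT-ND4L, -0.926 to 0.742 for MT-ND5 and -0.719 to 0.607 for MT-ND6. Without both Vector replicate 3 and mut-FTO replicate 2 they were 0.447 (MT-ATP6), 0.437 (MT-ATP8), 0.363 (MT-CO1), 0.368 (MT-CO2), 0.582 (MT-CO3), 0.242 (MT-ND1), 0.551 (MT-ND2), 0.472 (MT-ND4), 0.417 (MT-ND4L), 0.500 (MT-ND5) and 0.497 (MT-ND6). The cause of these changes was not tested.

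Replicate numbers did not pair the samples: deviations of same-numbered samples correlated at -0.127 to 0.106 and those of different numbers at -0.116 to 0.151. With a replicate block the members called were 0, 6 and 0 in the 3 comparisons, and COX6C, NDUFA6 and NDUFB1 no longer passed. The lowest members had few counts or none: COX6B2 and the 8 members not tested are near or below 2.002 CPM.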

Other observations

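Some nuclear members went against the rest in Vector replicate 3. ATP5J, of the peripheral stalk of the ATP synthase, stood at 38.3, 29.6 and 78.1 CPM in Vector, and ATP5J2, a membrane subunit, at 83.3, 55.1 and 100. Both were also highest of their group in mut-FTO replicate 2, at 64.7 CPM against 43.7 and 31.2 for ATP5J, and at 151.7 CPM against 92.0 and 75.5 for ATP5J2. NDUFB10, an accessory subunit of complex I, did the same, at 87.5 CPM in Vector replicate 3 against 82.0 and 65.0, and at 138.2 CPM in mut-FTO replicate 2 against 83.04 and 82.9. These genes were picked after their values were seen.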
